A study of Mus musculus with 16 samples.

Results

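Cardiac transcription factors were followed here as 10 genes: Gata4 and Gata6 (zinc-finger GATA factors), Nkx2-5 (an NK2 homeodomain factor), Tbx5 and Tbx20 (T-box factors), Hand2 (a basic helix-loop-helix factor), Mef2a, Mef2c and Mef2d (MADS-box factors) and Irx4 (an Iroquois homeodomain factor). They were chosen by gene symbol among the 46078 genes of the count table, and all 10 were among the 14897 genes that passed the filter on low counts. The libraries are labelled as cultured mouse juxtaglomerular (JG) cells, which in the kidney make renin, engineered to carry YFP driven by the renin promoter. They received either miR-106b or a control precursor that is not a mammalian miRNA, and were harvested after 48 h. For each transfection there were 4 libraries of polyA RNA and 4 of RNA immunoprecipitated with Ago2 (Ago2-IP RNA), so that there were 16 libraries in 4 groups. Ago2 is the protein of the RNA-induced silencing complex (RISC) that holds a miRNA together with the mRNAs it pairs with.

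As background, these factors bind the control regions of heart genes together. GATA4, NKX2-5 and TBX5 contact each other and activate shared targets such as atrial natriuretic peptide, HAND2 is needed for the right ventricle, TBX20 for growth of the chambers, and IRX4 marks the ventricles. MEF2 proteins drive contractile genes in heart and skeletal muscle and are also made in many other cell types, and GATA6 is made in several tissues beside the heart. A miRNA guides RISC to an mRNA mainly through its seed, bases 2 to 8 from its 5′ end, and an mRNA that gains miRNA-loaded Ago2 is commonly found at a higher level in Ago2-IP RNA relative to polyA RNA.

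The miRNA that was transfected and its matches in these genes are shown first, since the seed is the part through which it could pair with them. The mature sequence is that of RefSeq, on chromosome 5 of GRCm38.p6 (138165787 to 138165807, minus strand), with the seed in capitals.
miR-106b-5p: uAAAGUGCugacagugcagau
A search of the longest 3′UTR that GENCODE release M21 gives for each gene found the heptamer GCACTTT, complementary to bases 2 to 8, in Nkx2-5 and Tbx20 and in no other of the 10 genes. This was 2 of 10, where 14.8% of the 13222 tested genes with an annotated 3′UTR had it. The matches, on the strand of the mRNA, with the heptamer in capitals, are the following.
Nkx2-5 site: cagggtcacggGCACTTTcgacggattcc
Tbx20 site: gtttgagaacaGCACTTTgcatctcttgt
The heptamer of Nkx2-5 lay at 26838809 to 26838815 of chromosome 17 (GRCm38, minus strand), in a 3′UTR of 358 bases. That of Tbx20 lay at 24718506 to 24718512 of chromosome 9 (minus strand), near the far end of a 3′UTR of 7314 bases and outside the gene limits of the count table, which start at 24720812. When CACTTTA, the match to bases 2 to 7 followed by an A, was counted too, Mef2c was added, which made 3 of 10 against 22.2% of genes. Nkx2-5 and Tbx20 each held a CACTTTA beside the heptamer shown, that of Tbx20 again outside the gene limits. A match of letters is a description and no proof of binding.

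The depth of the 16 libraries, as reads assigned to genes, ran from 2579086 to 9459585. The polyA control libraries held 5692958 to 9459585 counts and the polyA miR-106b libraries 2815272 to 4554848, so that these groups did not overlap in depth. The Ago2-IP control libraries held 3501909 to 4616424 counts and the Ago2-IP miR-106b libraries 2579086 to 3450269. Depth and transfection therefore cannot be told apart within either RNA kind. Ren1, which encodes renin and defines JG cells, had 0 counts in all 16 libraries, which allows up to 0.317 to 1.16 CPM (counts scaled to library size) depending on the library (3 counts per library, counting error only). Akr1b7, another marker of renin cells, averaged 0.0920 CPM in polyA control libraries. Contractile and hormone genes of heart muscle were abundant in all of them: 28 such genes summed to 28198.9 to 39207 CPM in polyA control, 53274 to 90568.7 in polyA miR-106b, 121557 to 129962 in Ago2-IP control and 117637 to 128937 in Ago2-IP miR-106b libraries, and none of the 28 was at 0 in all libraries. Of the 12 JG and mural markers on the list, others were abundant: in polyA control libraries Des averaged 1096, Acta2 752, Tagln 495 and Pdgfrb 117 CPM, and the list summed to 2855 to 3129 CPM. Mural and other muscle cells also make these genes. The libraries go against the label in the lack of Ren1 counts, the low level of Akr1b7 and the abundance of heart muscle transcripts such as Myh6, the alpha myosin heavy chain, at 39540 ± 1077 CPM in Ago2-IP control (SD, n = 4). Whether the counts come from cells of the labelled type was not tested, and the libraries are named below by their labels only.

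All 10 factors were detected in every library, and none was close to the detection limit. The lowest count of any of them was 63, for Mef2c in a polyA miR-106b library, and the highest was 3187, for Mef2d in a polyA control library. To compare genes with each other, CPM after TMM scaling, computed for each RNA kind apart, were divided by the length of all exons of a gene in kilobases. In polyA control RNA the order of these levels per kilobase was Mef2d, Nkx2-5, Gata4, Hand2, Gata6, Irx4, Mef2a, Tbx5, Tbx20 and Mef2c. Mef2d was at 57.6 ± 3.27 CPM per kilobase and Nkx2-5 at 36.1 ± 6.03 (SD, n = 4 each), with no overlap between them, and Mef2c was at 0.663 ± 0.104 (SD, n = 4). The neighbours from Gata4 to Irx4 overlapped in their libraries and so did Tbx5 and Tbx20, so that their order is not fixed by these data.

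In Ago2-IP control RNA the order began differently. Nkx2-5 was first at 140.1 ± 5.16 CPM per kilobase (SD, n = 4), above Mef2d at 92.1 ± 4.53 and Gata4 at 67.7 ± 2.18. Hand2, Irx4, Gata6, Tbx5, Mef2a, Tbx20 and Mef2c followed, the last at 2.57 ± 0.165 CPM per kilobase, and no pair of neighbours overlapped on this scale. The polyA miR-106b libraries lay between: Nkx2-5 was at 78.5 ± 23.1 and Mef2d at 68.4 ± 9.94 CPM per kilobase (SD, n = 4 each), and their libraries overlapped. In Ago2-IP miR-106b RNA the order was that of Ago2-IP control, with an overlap between Hand2 and Irx4. Gene length sets this scale, and the long gene models of Mef2c (15.715 kb of exons) and Mef2a (14.681 kb) lower their values per kilobase. For Tbx20 the length (11.997 kb) includes bases outside the gene limits of the count table. With the exon bases inside those limits (9.323 kb for Tbx20), a choice made after the values were seen, Tbx20 and Mef2a overlapped in Ago2-IP control (9.441 and 9.504 CPM per kilobase) and in Ago2-IP miR-106b, where Tbx20 came before Mef2a (10.03 and 9.34), so that their order is not fixed. Hand2 and Gata6 then no longer overlapped in polyA control, and all other places in the order stayed in all 4 groups.

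**Figure D1:**
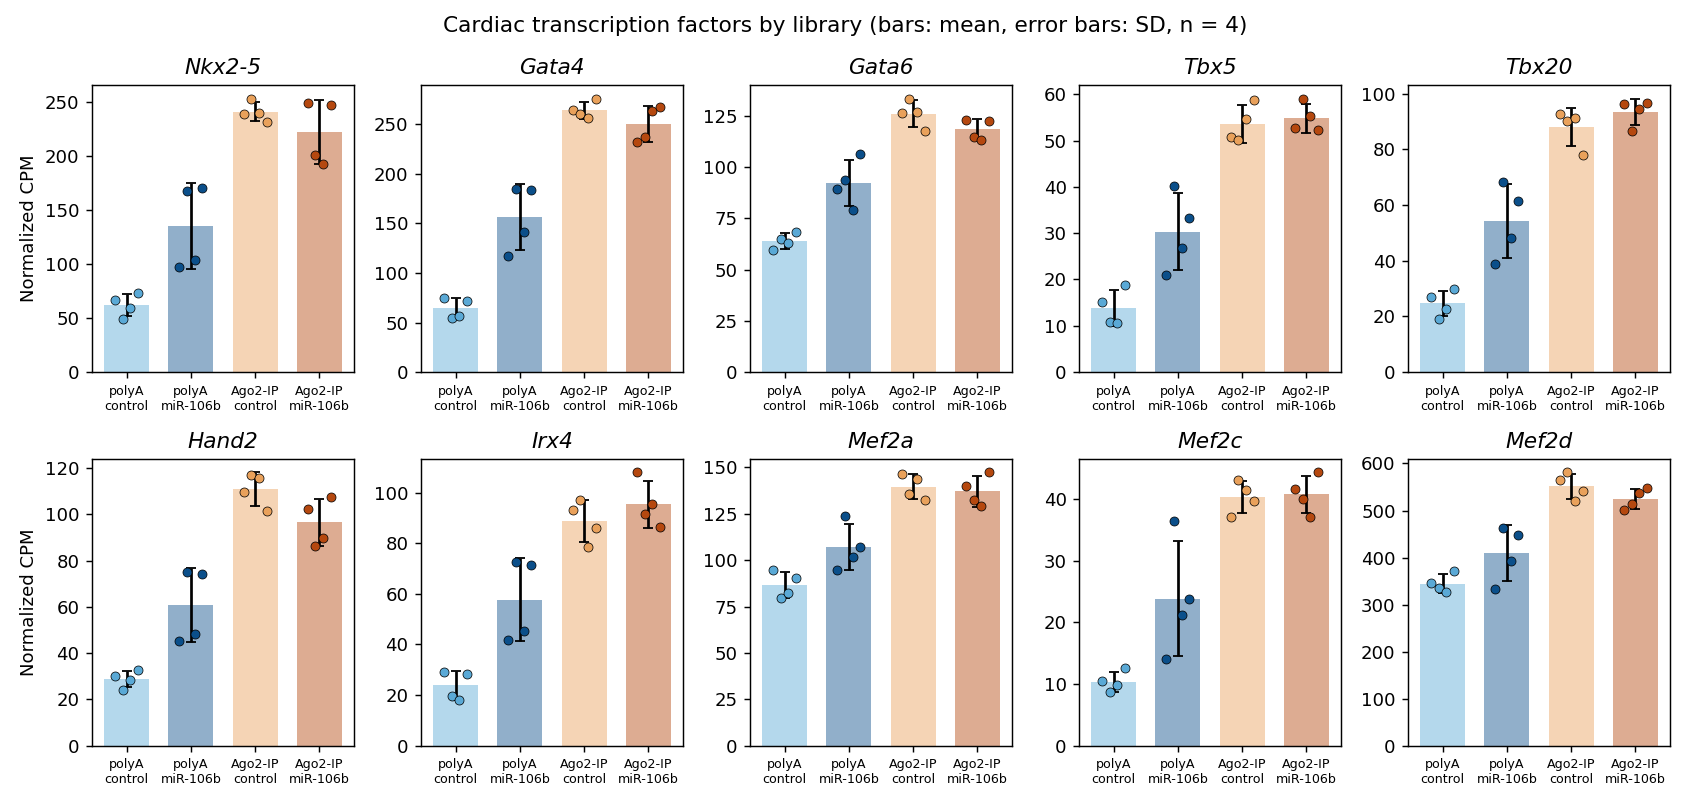
TMM-scaled CPM of each of the 10 factors by group. Points are libraries, bars are means and error bars are SDs of 4 libraries. On this scale all factors but Mef2d had every polyA miR-106b library above every polyA control library, as had 16.8% of all genes tested. Mef2a overlaps when scaled to library size. No factor had separate groups in Ago2-IP RNA, where the share over all genes was not counted.

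The first comparison asked which of the factors changed in polyA RNA with miR-106b. Of the 10, 8 were higher with miR-106b at an adjusted p under 0.05 (edgeR's quasi-likelihood F test, two-sided, Benjamini-Hochberg over all genes tested) and none was lower. Over all genes tested 40.5% passed in either direction and 19.0% were higher. Their median log2 fold change was 1.13, where that of all genes tested was -0.05. In 9 of the 10 every miR-106b library lay above every control library, as for 16.8% of all genes, on TMM-scaled CPM. Scaled to library size, Mef2a overlapped too. Nkx2-5, Gata4, Tbx5, Tbx20, Hand2, Irx4 and Mef2c formed a narrow range of log2 fold changes from 1.07 to 1.29, Gata6 was at 0.53, and Mef2a and Mef2d did not pass. In RNA of whole cultures, more cells of a type and more RNA per cell cannot be told apart. The summed contractile transcripts given above moved the same way as the factors, and their part in these changes was not tested.

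Gata4 (ENSMUSG00000021944, chromosome 14, 63198922 to 63271692, minus strand) is a factor of the early and adult heart. Its polyA level was 74.5, 54.3, 56.4 and 71.7 normalized CPM in control replicates 1 to 4, and 117, 185, 141 and 184 with miR-106b. The groups did not overlap, and miR-106b replicate 1 was the lowest of its group. The means were 64.2 ± 10.4 and 157 ± 33.3 (SD, n = 4 each), and edgeR fitted a log2 rise of 1.29 (SE 0.164, adjusted p = 0.000683). Gata6 (ENSMUSG00000005836, chromosome 18), its relative, had 59.5, 65.2, 63.0 and 68.4 normalized CPM in control and 89.6, 93.9, 79.2 and 106.5 with miR-106b. The groups again did not overlap, but the log2 fold change was only 0.53 (SE 0.113, adjusted p = 0.00304, edgeR). An opposite-strand transcript, 1010001N08Rik, shares 93 exonic bases with Gata6, and since the libraries were not strand-specific, reads on those bases cannot be assigned to either gene.

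Nkx2-5 (ENSMUSG00000015579, chromosome 17, 26838664 to 26841565, minus strand), which specifies heart muscle in the embryo, carries the GCACTTT shown above. Its polyA level was 66.4, 49.2, 59.2 and 73.5 normalized CPM in control and 97.2, 168, 104 and 171 with miR-106b. All 4 miR-106b libraries were higher than the highest control, with replicates 2 and 4 far above replicates 1 and 3. The log2 fold change was 1.12 (SE 0.195, adjusted p = 0.000998, edgeR). The polyA level of this factor was higher with miR-106b, as were those of factors without GCACTTT, such as Gata4 and Irx4. The part of the seed match in this change was not tested. Hand2 (ENSMUSG00000038193, chromosome 8, 57320983 to 57324517, plus strand) had 30.2, 24.2, 28.5 and 32.7 normalized CPM in control and 45.5, 75.2, 48.3 and 74.2 with miR-106b. Replicates 2 and 4 again stood above 1 and 3, and the log2 fold change was 1.07 (SE 0.178, adjusted p = 0.000818, edgeR). Hand2 shares 461 exonic bases with the opposite-strand gene Hand2os1.

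The T-box factors had lower counts. Tbx5 (ENSMUSG00000018263, chromosome 5, 119832668 to 119885219, plus strand), a factor of the atria, the conduction system and the forelimb, was at 15.03, 10.8, 10.5 and 18.7 normalized CPM in control and at 21.1, 40.1, 26.8 and 33.4 with miR-106b. The lowest miR-106b library was 21.1 against a highest control of 18.7, which is a small gap. The log2 fold change was 1.15 (SE 0.230, adjusted p = 0.00203, edgeR). Tbx20 (ENSMUSG00000031965, chromosome 9, 24720812 to 24774303, minus strand), the other gene with GCACTTT, was at 24.6 ± 4.66 normalized CPM in control and at 54.2 ± 13.3 with miR-106b (SD, n = 4 each). The control libraries held 26.9, 19.1, 22.8 and 29.7 and the miR-106b libraries 38.8, 68.2, 48.0 and 61.6, with a clear gap between them. It rose by 1.14 on the log2 scale (SE 0.189, edgeR, adjusted p = 0.000800), close to Tbx5 and to Nkx2-5. Irx4 (ENSMUSG00000021604, chromosome 13, 73260479 to 73269608, plus strand) was at 29.1, 19.8, 17.997 and 28.3 normalized CPM in control and at 41.9, 72.5, 45.3 and 71.2 with miR-106b. Its log2 fold change was 1.28 (SE 0.214, adjusted p = 0.000842, edgeR).

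The MEF2 factors split. Mef2c (ENSMUSG00000005583, chromosome 13, 83504034 to 83667080, plus strand), needed for formation of the heart tube, had 10.4, 8.71, 9.90 and 12.6 normalized CPM in control and 14.1, 36.4, 21.3 and 23.7 with miR-106b. The spread with miR-106b was wide, from 14.1 in replicate 1 to 36.4 in replicate 2, yet no library overlapped, and the log2 fold change was 1.20 (SE 0.250, adjusted p = 0.00250, edgeR). Mef2a (ENSMUSG00000030557, chromosome 7, 67231163 to 67372858, minus strand) had 94.6, 79.9, 82.2 and 90.5 normalized CPM in control and 94.8, 124, 102 and 107 with miR-106b. The groups touched but did not overlap (94.6 against 94.8), which held with TMM scaling only: scaled to library size, control replicate 1 was at 94.9 CPM and miR-106b replicate 1 at 92.9. For this gene edgeR gave the log2 fold change of 0.30 (SE 0.114) an adjusted p = 0.0505. That call passed in 6 of the other fits, without polyA miR-106b replicate 1 (0.44, adjusted p = 0.00565) among them, and missed the threshold in the rest. Mef2d (ENSMUSG00000001419, chromosome 3, 88142372 to 88172086, plus strand), the most abundant of the 10 in counts, had 346, 334, 327 and 372 normalized CPM in control and 332, 463, 393 and 448 with miR-106b. Replicate 1 with miR-106b fell inside the range of the controls. The log2 fold change was 0.25 (95% interval -0.02 to 0.51, adjusted p = 0.129, edgeR), and it passed without that replicate (0.42, adjusted p = 0.00487). Mef2a and Mef2d share 302 and 531 exonic bases with opposite-strand genes, Lysmd4 and 1700113A16Rik.

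Exact permutation tests of single genes gave the smallest p that 4 against 4 libraries allow, 0.0286 (two-sided, 70 relabellings), for each of the 9 factors with separate groups on TMM-scaled CPM, Mef2a included, and p = 0.114 for Mef2d (exact permutation test, n = 4 each).

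In Ago2-IP RNA none of the 10 factors passed. No gene at all did in edgeR's test (0% of 14897), where 826 had an unadjusted p under 0.05, and DESeq2's Wald test called 2 genes, neither of them one of these factors. That count of 0 depended on the libraries and the filter: edgeR called 40 genes when miR-106b replicate 4 of this RNA kind was left out, 8 when control replicate 4 was, 4 when miR-106b replicate 1 was, and 20 with no filter on low counts, and none of the 10 factors was called in any of these fits. The log2 fold changes of the 10 ran from -0.20 to 0.10 with a median of -0.05, and in every one of them the miR-106b and control libraries overlapped. The share of all genes that overlapped in Ago2-IP RNA was not counted, so the overlap is a description of the 10 only. Nkx2-5 was at 238.5, 253, 240.0 and 232 normalized CPM in Ago2-IP control and at 249, 201, 193 and 247 with miR-106b, and the fitted difference was -0.12 on the log2 scale (95% interval -0.27 to 0.04, adjusted p = 0.910, edgeR), and -0.05 without miR-106b replicate 3. Replicates 1 and 4 with miR-106b were among the controls, and replicates 2 and 3 were below them. Tbx20, the other gene with GCACTTT, was at 88.0 ± 6.80 and 93.5 ± 4.75 normalized CPM (SD, n = 4 each), with a fitted log2 difference of 0.09 (95% interval -0.06 to 0.24, adjusted p = 0.928), and 0.03 without control replicate 4.

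Hand2 had the lowest unadjusted p of the 10 in Ago2-IP RNA. It was at 109.5, 117, 115.8 and 101 normalized CPM in control and at 102, 86.3, 89.9 and 108 with miR-106b. The groups overlapped, and the log2 fold change of -0.20 (SE 0.0725) had an unadjusted p of 0.00737 and missed the threshold (adjusted p = 0.682, edgeR). Gata4 was at 264 ± 8.49 and 250.2 ± 18.1 normalized CPM, Gata6 at 126 ± 6.56 and 119 ± 5.16, Irx4 at 88.7 ± 8.19 and 95.3 ± 9.22, and Mef2d at 551 ± 27.1 and 525 ± 21.5, in control and with miR-106b in turn (SD, n = 4 each). Tbx5 was at 50.8, 50.1, 54.7 and 58.9 normalized CPM in control and at 52.8, 59.1, 55.3 and 52.2 with miR-106b, and Mef2c at 37.1, 43.1, 41.5 and 39.6 and at 41.6, 40.1, 37.2 and 44.3. Their Ago2-IP libraries lay close together, with neither group above the other. Mef2a was at 139.5 ± 6.66 and 137 ± 8.19 normalized CPM (SD, n = 4 each). The plot of changes by RNA kind sets these small differences beside those of polyA RNA.

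**Figure D2:**
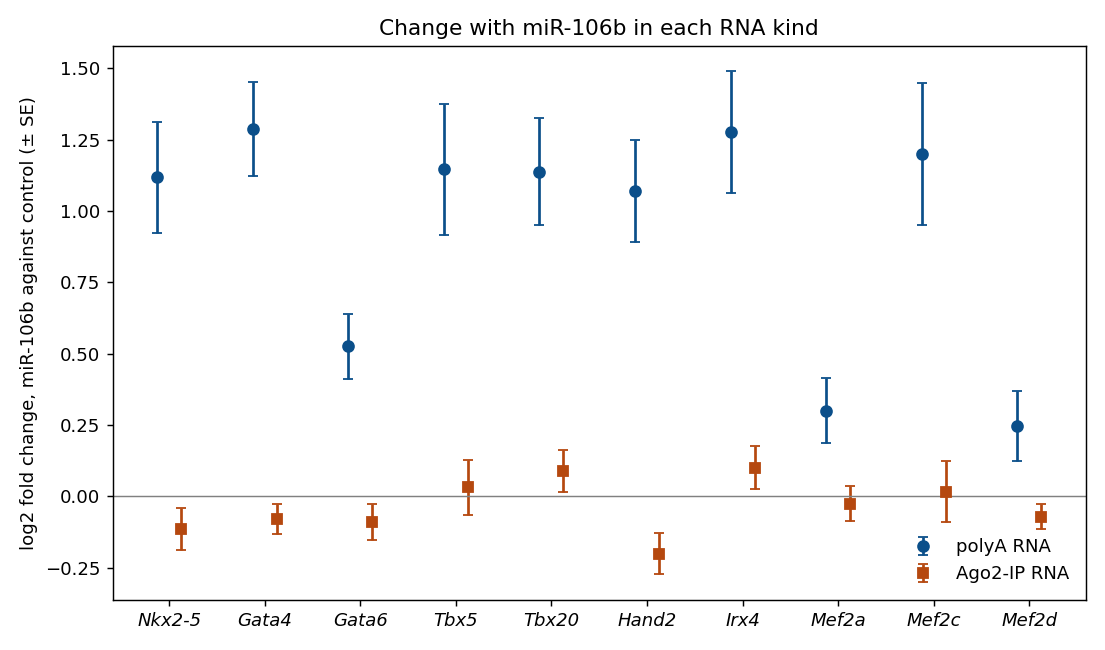
Fitted log2 fold change with miR-106b against control of each factor, with its standard error, in polyA RNA (circles) and Ago2-IP RNA (squares), from 4 libraries a group. The polyA values lie between 0.25 and 1.29, and those of Ago2-IP RNA between -0.20 and 0.10.

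The study selected genes by how far their Ago2:polyA ratio changed with miR-106b, so this ratio was fitted for the factors in 1 model of all 16 libraries. In control cells all 10 were higher in Ago2-IP RNA, as were 35.1% of all genes tested. The log2 ratio of Gata4 was 2.35 (SE 0.130), of Tbx5 2.28, of Mef2c and Nkx2-5 2.27 each, of Hand2 2.25, of Irx4 2.21 and of Tbx20 2.15, which is 4.44- to 5.10-fold. Gata6 was at 1.28 (SE 0.0928), and Mef2a and Mef2d at 0.99 and 0.98, 1.99- and 1.98-fold. The largest adjusted p among the 10 was 3.98e-09 (Mef2d, edgeR). Scaling by library size alone lowered the median log2 ratio of all genes from -0.03 to -0.35 and that of Gata4 to 2.03, and all 10 were higher still.

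In cells transfected with miR-106b the 10 were again higher in Ago2-IP RNA, as were 21.9% of genes, but by less. The log2 ratio was 1.02 for Tbx5, 0.96 for Tbx20, 0.94 for Mef2c, 0.89 for Nkx2-5 and Irx4, 0.84 for Gata4 and 0.83 for Hand2. For Gata6, Mef2a and Mef2d it was 0.52 each. The largest adjusted p was 0.000292 (Mef2c, edgeR).

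The change of the ratio, tested as an interaction term in that model, was negative for all 10 factors at an adjusted p under 0.05, as for 19.7% of all genes. It fell by 1.51 on the log2 scale for Gata4 (SE 0.177, adjusted p = 1.54e-05, edgeR), by 1.42 for Hand2, by 1.38 for Nkx2-5, by 1.33 for Mef2c, by 1.32 for Irx4, by 1.26 for Tbx5 and by 1.20 for Tbx20. It fell by 0.76 for Gata6, by 0.47 for Mef2a (adjusted p = 0.00991) and by 0.46 for Mef2d (adjusted p = 0.0145). The last 2 of these calls were lost under library-size scaling, under TMM within each RNA kind, without the filter on low counts and without polyA miR-106b replicate 2. Without that library the changes were -0.295 for Mef2a (adjusted p = 0.0885) and -0.30 for Mef2d (adjusted p = 0.102, edgeR), and under the other 3 settings they ran from -0.33 to -0.30 and from -0.32 to -0.29. Ratios and polyA changes come from the same polyA libraries, so the falls of the ratio and the rises in polyA RNA are not separate evidence.

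The levels of the factors were then set beside the summed contractile list, library by library, on CPM scaled to library size, each as a percentage of its Ago2-IP control mean. These calculations were chosen after the values had been seen and are given as descriptions. The contractile list was at 22.3 to 30.9% in polyA control libraries and at 42.1 to 71.5% in polyA miR-106b libraries. Gata4 was at 20.7 to 28.3% and at 43.6 to 68.8%, Nkx2-5 at 20.6 to 30.7% and at 39.6 to 68.5%, and Hand2 at 22.0 to 29.7% and at 40.2 to 66.6%. Tbx5 (19.8 to 35.1% and 38.6 to 73.6%), Tbx20 (21.9 to 34.0% and 43.2 to 76.2%), Irx4 (20.5 to 33.0% and 46.4 to 80.3%) and Mef2c (21.8 to 31.4% and 34.4 to 88.7%) covered similar ranges. Gata6 stood higher at 47.4 to 54.5% in control and 65.4 to 81.0% with miR-106b, Mef2a at 57.8 to 68.1% and 66.7 to 87.3%, and Mef2d at 60.0 to 67.8% and 59.2 to 82.6%.

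**Figure D3:**
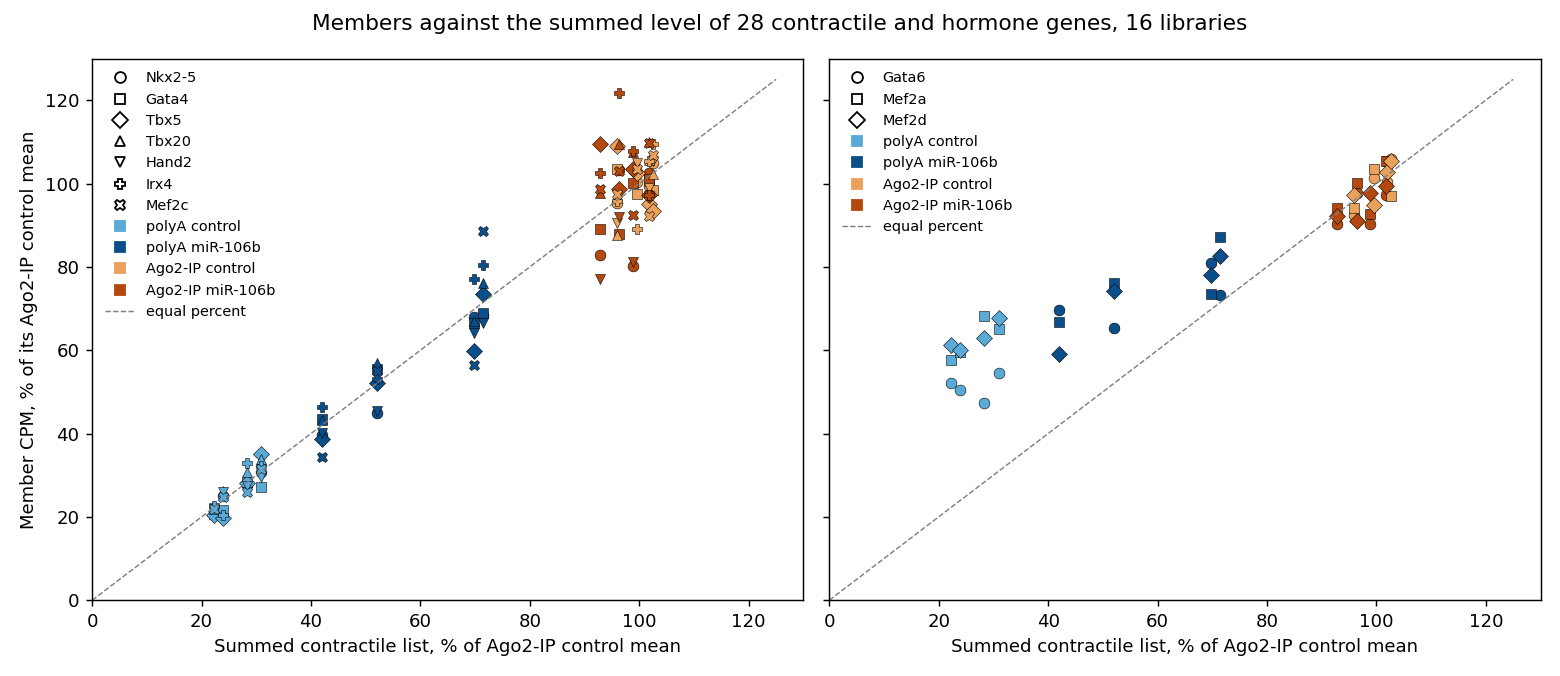
CPM of each factor against the summed CPM of 28 contractile and hormone genes in the same library, both as a percentage of the Ago2-IP control mean, in 16 libraries (colours: groups, symbols: genes). In the polyA control libraries Nkx2-5, Gata4, Tbx5, Tbx20, Hand2, Irx4 and Mef2c (left) lie near the dashed line of equal percentages. There Gata6, Mef2a and Mef2d (right) lie above it, at 47.4 to 68.1% against 22.3 to 30.9% for the list. Elsewhere some points on the left lie farther off. Mef2c is at 88.7% against 71.5% in polyA miR-106b replicate 2, and Irx4 at 121.7% against 96.4% in Ago2-IP miR-106b replicate 1. The Ago2-IP control points set both scales.

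Counted per 1000 contractile counts, Gata4 varied by 1.22-fold between the highest and lowest of the 16 libraries, from 1.84 to 2.25. The control and miR-106b polyA libraries held 1.84 to 2.09 and 1.99 to 2.22 Gata4 counts per 1000. Over the 16 libraries Tbx20 varied by 1.24-fold, Nkx2-5 by 1.32-fold, Hand2 by 1.33-fold, Tbx5 by 1.42-fold, Irx4 by 1.47-fold and Mef2c by 1.53-fold. Gata6 varied by 2.57-fold, Mef2a by 2.77-fold and Mef2d by 2.91-fold. Mef2d was at 9.52 to 11.9 counts per 1000 contractile counts in polyA control, at 4.85 to 6.19 in polyA miR-106b, at 4.13 to 4.46 in Ago2-IP control and at 4.10 to 4.32 in Ago2-IP miR-106b libraries. On this scale Gata4 had nearly the same level in all 4 groups and Mef2d was highest in polyA control, although its mean CPM was lowest there.

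Ratios of counts between the factors do not depend on the scaling of a library, and the 9 ratios to Gata4 were compared after the values had been seen. Per Gata4 count there were 4.64 to 6.16 Mef2d counts in polyA control and 2.44 to 2.83 in polyA miR-106b libraries, with no overlap, and 1.96 to 2.23 in Ago2-IP control libraries. There were 1.26 to 1.47 Mef2a counts per Gata4 count in polyA control, 0.582 to 0.807 in polyA miR-106b and 0.480 to 0.560 in Ago2-IP control libraries, and 0.798 to 1.20, 0.507 to 0.763 and 0.426 to 0.513 Gata6 counts. The ratios of Nkx2-5 (0.892 to 1.05 and 0.736 to 0.929), Irx4 (0.319 to 0.395 and 0.321 to 0.392) and Mef2c (0.140 to 0.176 and 0.120 to 0.197) to Gata4 overlapped between polyA control and polyA miR-106b libraries, and so did those of Tbx5 (0.186 to 0.261 and 0.179 to 0.217), Tbx20 (0.352 to 0.415 and 0.330 to 0.368) and Hand2 (0.406 to 0.505 and 0.342 to 0.406), the last by little. Exact permutation tests (two-sided, n = 4 each) gave p = 0.0286 for Mef2d, Mef2a and Gata6, the smallest that 4 against 4 libraries allow, and 0.0571 for Hand2. None of the 9 passed a Benjamini-Hochberg adjustment over them. That smallest p cannot pass it when so few of the 9 reach it, so no conclusion is drawn from this outcome.

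Raw counts of the factors are given beside the depth of the polyA libraries, which cannot be told apart from transfection. Total counts of the 8 polyA libraries differed by 3.36-fold between the deepest and the shallowest, but Nkx2-5 counts by 1.67-fold (376 to 627) and Hand2 counts by 1.61-fold (175 to 281), and CPM of Nkx2-5 differed by 3.32-fold. In polyA control the deepest library, with 9459585 counts, held 469 Nkx2-5 counts, and the shallowest polyA library, a miR-106b one with 2815272, held 460. Mef2d counts differed by 2.64-fold and its CPM by 1.40-fold. The other factors lay between these or at the upper end. Their counts differed by 1.68-fold (Tbx20), 1.84-fold (Gata4), 2.14-fold (Tbx5), 2.16-fold (Gata6 and Mef2c each), 2.26-fold (Irx4) and 2.64-fold (Mef2a).

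**Figure D4:**
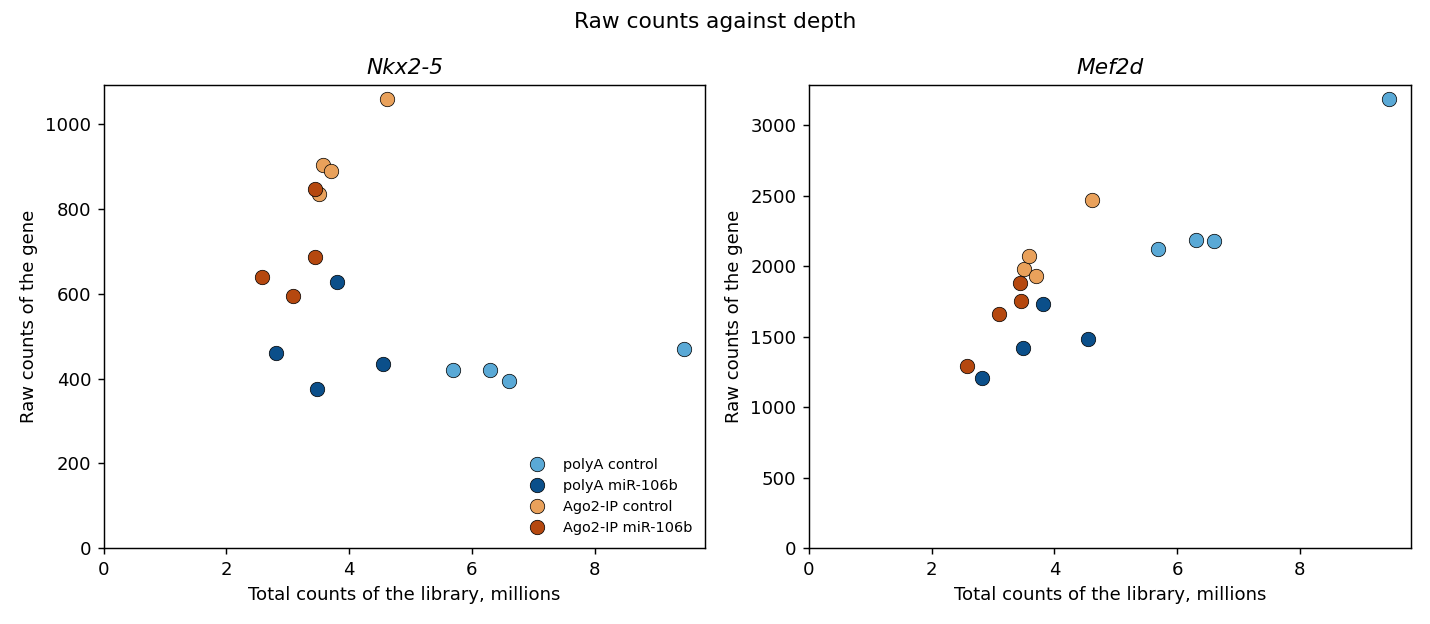
Raw counts of Nkx2-5 (left) and Mef2d (right) against the total counts of the library, for 16 libraries coloured by group. In the polyA libraries Nkx2-5 counts stay between 376 and 627 over a 3.36-fold range of depth, while Mef2d counts run from 1208 to 3187.

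Over the 16 libraries, Pearson correlations of log2(CPM + 1) between the factors ran from 0.92 (Mef2d and Irx4, Mef2d and Gata6) to 0.997 (Nkx2-5 and Hand2). The points fall into clusters by group and share their library's depth, so that the libraries are not independent points and no test is given. Among the 10947 genes whose mean reached 5 CPM, and leaving out the 10 factors themselves, those with the highest correlation to Nkx2-5 over the 16 libraries were Chchd10 (0.997), Adrb1 (0.996), Fastk (0.996), Limch1 (0.995) and Atp2a2 (0.995). Adrb1 encodes the beta-1 adrenergic receptor and Atp2a2 the calcium pump of the sarcoplasmic reticulum. Those with the highest correlation to Mef2d were Heg1 (0.989), Pdlim5 (0.988), Rap1gap2 (0.984), Stk40 (0.984) and Gpc1 (0.984). Chchd10 averaged 378 CPM in polyA control and 1475 in Ago2-IP control libraries, and Heg1 256 and 404 CPM.

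Partners and relatives of the factors were counted as a list of 22 genes, of which 17 passed the filter. In polyA RNA 9 of the 17 were higher with miR-106b and none was lower (edgeR, adjusted p under 0.05), where 19.0% of all genes tested were higher and 40.5% were called in either direction, and their median log2 change was 0.53 against -0.05 over all genes. The 6 with the largest changes were Hdac9 (1.41), a deacetylase that binds MEF2, Hopx (1.26), a homeodomain-only protein of heart muscle, Myocd (1.20), the coactivator of serum response factor, Hey2 (1.13), a Notch target of the ventricle, Tbx2 (0.98), a T-box repressor, and Meis1 (0.68), a homeodomain factor. Hopx went from 15.4 ± 2.85 to 36.9 ± 9.20 CPM and Myocd from 27.7 ± 4.51 to 63.9 ± 18.9 CPM (SD, n = 4 each). Gata5, Hand1 and Isl1, relatives or forerunners in the embryonic heart, were below the filter, at mean levels of 0.288, 0.0875 and 0.0700 CPM in polyA control, and Mef2b had 0 counts in all libraries. Irx3 and Ankrd1 were also higher (0.56 and 0.53), while Srf (0.18, adjusted p = 0.230), Tead1 (-0.17, adjusted p = 0.201) and Zfpm2 (0.06, adjusted p = 0.760), which binds GATA4, did not pass. In Ago2-IP RNA none of the 17 passed.

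Contractile and hormone genes, known as targets of these factors, were read in the same way. Of 27 that passed the filter, 26 were higher with miR-106b in polyA RNA, by a median of 1.22 on the log2 scale, beside 19.0% of all genes tested and their median of -0.05, and none was called in Ago2-IP RNA. The 3 most abundant were Myh6 (9960 ± 1627 CPM in polyA control, 23492 ± 6253 in polyA miR-106b and 39540 ± 1077 in Ago2-IP control, SD, n = 4), Mb, myoglobin (log2 fold change 1.24), and Atp2a2, which went from 3155 ± 403 to 6554 ± 1686 CPM (SD, n = 4 each) in polyA RNA. The exception was Myl4, an atrial myosin light chain (0.35, adjusted p = 0.498, edgeR, 2.34 CPM in polyA control), and Myl7 did not pass the filter.

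Markers of other cell types were followed beside these, and their polyA counts stand against the same 19.0% of all genes higher and 40.5% called in either direction. In polyA RNA all 8 fibroblast genes were higher with miR-106b (median log2 fold change 1.16), as were all 8 genes of blood and macrophages (1.23) and 6 of 8 of endothelium and endocardium, of which 1 was lower (median 1.18). The summed level of the blood and macrophage genes was 129 to 189.7 CPM in polyA control, 281 to 455 in polyA miR-106b, 621 to 649 in Ago2-IP control and 592 to 669 in Ago2-IP miR-106b libraries. Of 10 JG and mural genes that passed the filter 5 were higher with miR-106b and 1 lower. In control cells 7 of these 10 were higher in Ago2-IP than in polyA RNA, as the cardiac factors and 35.1% of all genes were, among them Des (log2 ratio 2.30), Cspg4 (2.29), Rgs5 (2.26) and Myh11 (2.22), and 3 were lower, as were 5157 of all 14897 genes, namely Acta2 (-1.26), Tagln (-2.16) and Foxd1 (-3.94). Of 8 kidney epithelium genes 1 passed the filter. It was lower with miR-106b (log2 fold change -1.07), and the list summed to 13.2 to 27.2 CPM in polyA control and to 0.541 to 4.77 CPM in Ago2-IP control libraries. None of these genes was called in Ago2-IP RNA. The part of other cell types in the levels of the factors was not tested.

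RefSeq promoters (250 bases before to 50 after the start of a gene, GRCm38.p6) were given for Nkx2-5, Tbx20, Hand2, Mef2a, Mef2c, Mef2d and Irx4, 9 promoters in all, and were searched on both strands. The GATA motif (GATA with A or T before it and A or G after it) was present in 1 of the 9, that of Hand2, where 29.8% of 32851 promoters had one. The T-box core AGGTGT was present in 1 of 9 (13.7% of all), the NK2 core CACTTNA in 0 of 9 (11.5%) and the E-box CANNTG in 5 of 9 (72.3%). The Hand2 promoter, chr8:57320733-57321032 on the plus strand, is shown with its 2 GATA matches in capitals, since it is the one promoter of the 9 that holds this motif, and Gata4 and Gata6 are among the factors.
Hand2 promoter: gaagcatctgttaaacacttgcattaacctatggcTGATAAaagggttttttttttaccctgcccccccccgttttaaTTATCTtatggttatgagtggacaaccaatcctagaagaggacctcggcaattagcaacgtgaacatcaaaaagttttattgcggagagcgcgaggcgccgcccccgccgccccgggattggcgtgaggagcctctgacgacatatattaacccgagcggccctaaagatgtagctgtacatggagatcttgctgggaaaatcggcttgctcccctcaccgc
The second match is read on the minus strand. Neither count says whether a factor binds there, and the expression data hold no measurement of binding.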

How the data were processed

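Per the labels and the study's methods, non-strand-specific single-end libraries of polyA RNA and Ago2-IP RNA were cleared of ribosomal reads, aligned to the GRCm38 transcriptome (TopHat2 version 2.0.10 in the submitters' processing notes) and counted with HTSeq. The authors deposited raw counts of 46078 genes in 16 libraries, used here as given. Groups follow the labels. The study calls the libraries of a group biological replicates, and p-values measure the spread between these. Whether a polyA and an Ago2-IP library shared a culture was not established. Reads carry no molecular identifiers, and limits from counts cover counting error only.

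Genes with at least 1 CPM in at least 3 of 4 libraries of any group were kept (14897) and fitted with edgeR version 4.0.16 (R 4.3.3): TMM, robust quasi-likelihood F test, two-sided, prior count 0.125, Benjamini-Hochberg over all genes tested, threshold 0.05. Each RNA kind had its own fit, and comparisons across kinds used 1 fit of all 16 libraries. Normalized CPM and those of other named genes are scaled by TMM within each RNA kind, while summed lists, percentages and counts per 1000 use library size only. Simulated counts checked the fits with 200 genes changed by 3-fold, up or down. The polyA fit found 191 and made 18 false calls, and the fit of the ratio found 169 and made 10. Far fewer genes changed there than were called in polyA RNA or for the ratio. The simulation therefore cannot say how the scaling performs in these data.

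The members and gene lists were chosen with earlier results of these data known. Beside the 10 factors, the text names the 6 partner genes with the largest called polyA change, the 3 contractile genes highest in Ago2-IP control and the 5 genes most correlated with Nkx2-5 and with Mef2d. Other genes were named after their values were seen. Seed sites come from GENCODE release M21, the miRNA and promoters from RefSeq. Gene starts of the count table were moved by 1 base to count from 1. Libraries were not paired by replicate number in the main fits. Correlations of same-numbered libraries were -0.42 to 0.26, which cannot exclude a pairing. The replicate block was an alternative, beside DESeq2 version 1.42.0 (size factors, Wald test), other scaling and filters, and leaving out each library.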

Additional observations from a re-analysis of the deposited data

Results flagged for a closer look

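For all 10 factors the change with miR-106b differed between the RNA kinds, by the interaction test of edgeR's quasi-likelihood fit (adjusted p under 0.05). The calls of Mef2a and Mef2d were lost under library-size scaling and under TMM within each RNA kind. They were also lost without the filter on low counts and without polyA miR-106b replicate 2. The change in Ago2-IP RNA minus that in polyA RNA, on the log2 scale, was -1.51 for Gata4, -1.42 for Hand2, -1.38 for Nkx2-5, -1.33 for Mef2c, -1.32 for Irx4, -1.26 for Tbx5, -1.20 for Tbx20, -0.76 for Gata6, -0.47 for Mef2a and -0.46 for Mef2d. Over all genes tested 4071 of 14897 were called in either direction and 19.7% were lower. In the contractile list 25 of 27 genes were called lower, with a median of -1.39. The fall was not particular to heart genes. Called lower were also 8 of 8 fibroblast genes (median -1.29) and 7 of 8 genes of blood and macrophages (-1.44). So were 6 of 8 genes of endothelium and endocardium (-1.32) and 6 of 10 JG and mural genes (-1.18), but not the 1 kidney epithelium gene tested. The summed contractile CPM of the polyA libraries ranged from 28198.9 to 90568.7 against 117637 to 129962 in Ago2-IP libraries. The part of the transcripts of these lists in the values of the factors was not tested. Among 40 groups of 4 libraries (10 factors in 4 groups), none held a library past Dixon's 95% limit, where chance alone passes it in about 1 of 20.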

How the results depend on the processing

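The number of factors called was 8 to 10 in polyA RNA, 0 in Ago2-IP RNA, 10 in both comparisons of Ago2-IP with polyA RNA and 8 to 10 for the change of the ratio, over all alternatives and over leaving out each library. With a replicate block it was 8 in polyA RNA, 0 in Ago2-IP RNA and 10 in each of the others, so that the block changed no call. Mef2a passed in polyA RNA with DESeq2 size factors (0.37, adjusted p = 0.0276), DESeq2's Wald test (0.37, adjusted p = 0.0188) and a minimum of 10 counts (adjusted p = 0.0459), and without polyA control replicate 1 (0.43, adjusted p = 0.0311), and both Mef2a (0.43) and Mef2d (0.37) passed with all 16 libraries in 1 fit. That fit moved the median of all genes from -0.05 to 0.07, with 3829 of 6237 calls higher against 2836 of 6034. For the ratio, library-size scaling moved the median of all genes from -0.07 to 0.10, with 2002 of 4306 calls higher against 1134 of 4071, and the changes of Mef2a (-0.30, adjusted p = 0.0815) and Mef2d (-0.29, adjusted p = 0.101) no longer passed. In Ago2-IP RNA, where no factor was called, the sign turned for Mef2c (-0.0196 without control replicate 1, -0.0274 without miR-106b replicate 4, -0.00377 with all 16 libraries), Tbx5 (-0.00385 without control replicate 2, -0.00738 without miR-106b replicate 2) and Mef2a (0.00316 without miR-106b replicate 3). Over leaving out each Ago2-IP library the value ran from -0.0274 to 0.0590 for Mef2c, from -0.00738 to 0.0819 for Tbx5, from -0.0621 to 0.00316 for Mef2a, from -0.172 to -0.0528 for Nkx2-5 and from 0.0384 to 0.146 for Irx4, and it was as low as 0.0324 for Tbx20. Leaving out each polyA library in turn gave log2 fold changes of 1.20 to 1.49 for Gata4, 0.99 to 1.33 for Nkx2-5 and 0.91 to 1.49 for Mef2c. The cause of these shifts was not tested. With 63 to 136 counts in polyA libraries, Mef2c was the least precise of the factors.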
